A study of Homo sapiens with 8 samples.

Results

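The potassium channel genes described here are all protein-coding genes whose symbol begins with KCN, the prefix of the potassium channel subunits. Under this rule 95 genes had values, of 19379 protein-coding genes and 52719 genes of any kind in the table. The RNA came from SH-SY5Y, a cell line derived from a human neuroblastoma of the sympathetic lineage, which was kept in DMEM/F12 with foetal calf serum and profiled by mRNA sequencing. Of the 8 libraries, 4 came from undifferentiated cells (replicates 17 to 20) and 4 from cells given 9-cis retinoic acid at 1 µM over 7 days to differentiate them (replicates 21 to 24). 9-cis retinoic acid is an agonist of the retinoic acid receptors and the retinoid X receptors. The labels give the undifferentiated cells neither a dose nor a day, so treatment and time in culture cannot be told apart. Nothing in the labels says that the replicates of a group were separate cultures, and p-values then measure no more than how far these libraries scatter, which may be technical scatter. All values come from a single cell line.

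Potassium channels let potassium leave or enter the cell along its gradient and so set the resting potential and end the action potential. Voltage-gated channels (families KCNA to KCND, KCNH and KCNQ) open on depolarization, and the silent subunits (KCNF, KCNG, KCNS and KCNV) form no channel of their own but join other voltage-gated subunits. Inward rectifiers (KCNJ) and tandem-pore leak channels (KCNK) are open near the resting potential, while KCNM, KCNN and KCNT channels open with intracellular calcium or sodium. Auxiliary subunits (KCNAB, KCNE, KCNIP and KCNMB) form no pore and alter the gating or traffic of the channels they bind. In sympathetic neurons the KCNQ channels carry the M current, which muscarinic receptors close, and KCNH channels are known for their part in the resting potential of neuroblastoma cells.

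Values are in TPM, a share of each library's transcripts corrected for transcript length. The values of every library sum to 1000000, so read depth is unknown and counting error cannot be given. The number of genes of any kind at 1 TPM or more ran from 16265 to 17370 per library. Differentiated replicate 22, with 16273 such genes, stood lowest of its group for 54.7% of all tested genes and for 20 of the 35 tested potassium channel genes (57.1%). Lane 7 held undifferentiated replicates 17 and 18, and lane 8 all 6 others. Within the undifferentiated group, limma called 2 of 16647 genes between the lanes, and 0 of the 38 potassium channel genes tested there, 0 of them at an unadjusted p under 0.05. The genes known to respond directly to retinoic acid, CYP26A1, CYP26B1, RARB and DHRS3, were all higher in differentiated libraries, by 3.42 to 9.51 on the log2(TPM+1) scale. In bulk RNA, fewer cells of a type and less RNA per cell cannot be told apart.

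Summed over all members, potassium channel transcripts took 272 ± 5.6 TPM in undifferentiated and 401 ± 18.1 TPM in differentiated libraries (mean ± SD, n = 4 libraries per group here and below), and every differentiated library was above every undifferentiated one. Voltage-gated pore subunits made up 55.3% ± 1.43 of that sum in undifferentiated libraries and 39.7% ± 1.58 in differentiated libraries. Inward rectifiers went from 6.55% ± 0.276 to 15.1% ± 1.02 of it, tandem-pore leak channels from 5.86% ± 0.172 to 13.2% ± 1.3, and calcium- or sodium-activated pore subunits from 8.39% ± 0.418 to 11.4% ± 0.969. Silent subunits had 3.41% ± 0.078 and then 1.22% ± 0.095, and auxiliary subunits 20.0% ± 1.17 and 19.0% ± 2.58. The summed level of the voltage-gated pore subunits itself was 150.0 ± 6.72 and 159 ± 7.45 TPM. Single genes made up most of the difference in several classes. They were KCNJ8 in the inward rectifiers (11.3 and 49.6 TPM) and KCNK1 in the leak channels (8.25 and 45.6 TPM). KCNT2 (14.1 and 31.1 TPM) did so in the calcium- or sodium-activated pore subunits and KCNIP4 (0.319 and 15.2 TPM) in the auxiliary subunits. The summed level of the silent subunits fell from 9.25 to 4.9 TPM, mostly through KCNG1 (6.91 and 3.09 TPM). These sums describe the libraries and were not tested. They also include transcripts not annotated as protein-coding. Such transcripts held 74.3% and 67.0% of KCNAB3 and 36.1% and 34.9% of KCNT2, but 0.0% of KCNJ8 in both groups.

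**Figure D1:**
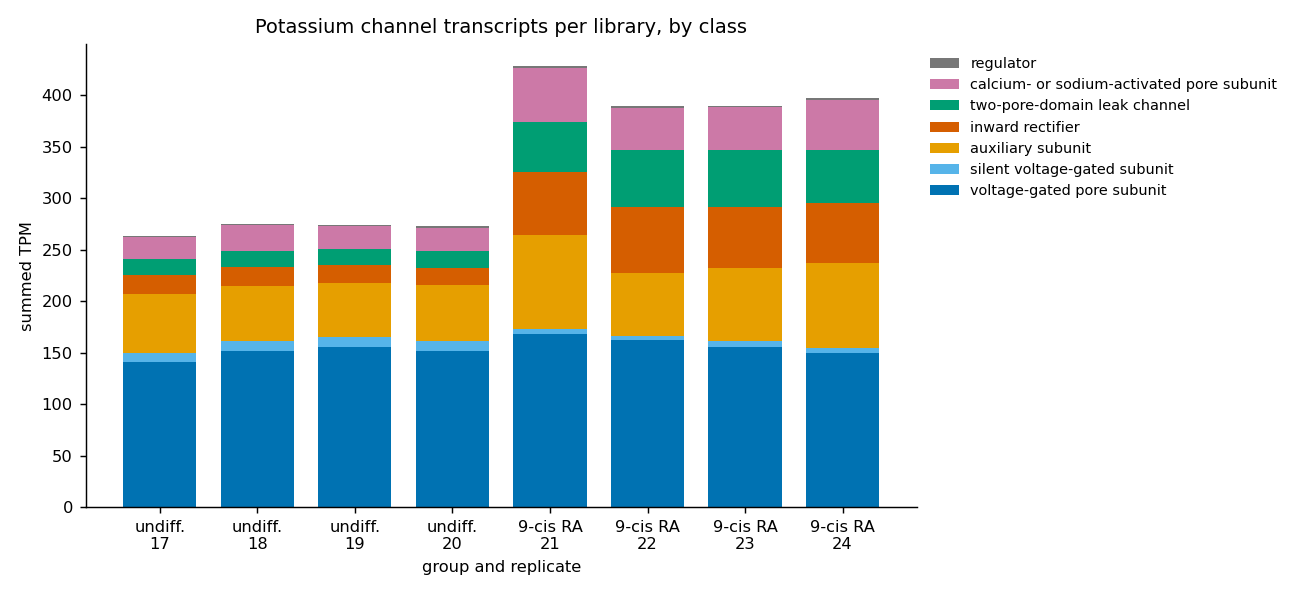
Summed TPM of the potassium channel genes in each library, stacked by class, for undifferentiated replicates 17 to 20 and differentiated replicates 21 to 24. The total runs from 263 to 275 TPM in undifferentiated and from 390 to 428 TPM in differentiated libraries, with the inward rectifier and leak channel segments larger in each differentiated bar.

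Testing needed an average of at least 1 TPM across all 8 libraries, which left 35 of the 95 members, and 60 were not tested. In the fit over all 17077 tested genes (limma on log2(TPM+1), Benjamini-Hochberg adjusted p under 0.05), 15 potassium channel genes were higher in differentiated cells, where 33.9% of all tested genes were, and 5 were lower, where 17.4% were. The other 15 did not pass the test. In either direction 20 of 35 passed, against 51.3% of all tested genes. Of the 35, 7 rose by 1 or more on the log2 scale, against 8.84% of all tested genes, and 1 fell by that much, against 2.55%. The groups did not overlap for 19 members, against 49.6% of all tested genes. The median log2 fold change was 0.27 over the tested members and 0.10 over all tested genes. KCNIP4 and KCNJ2 were under 1 TPM in undifferentiated cells and reached the minimum through their differentiated level. Both are among the 15 called higher and the 7 that rose by 1 or more.

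**Figure D2:**
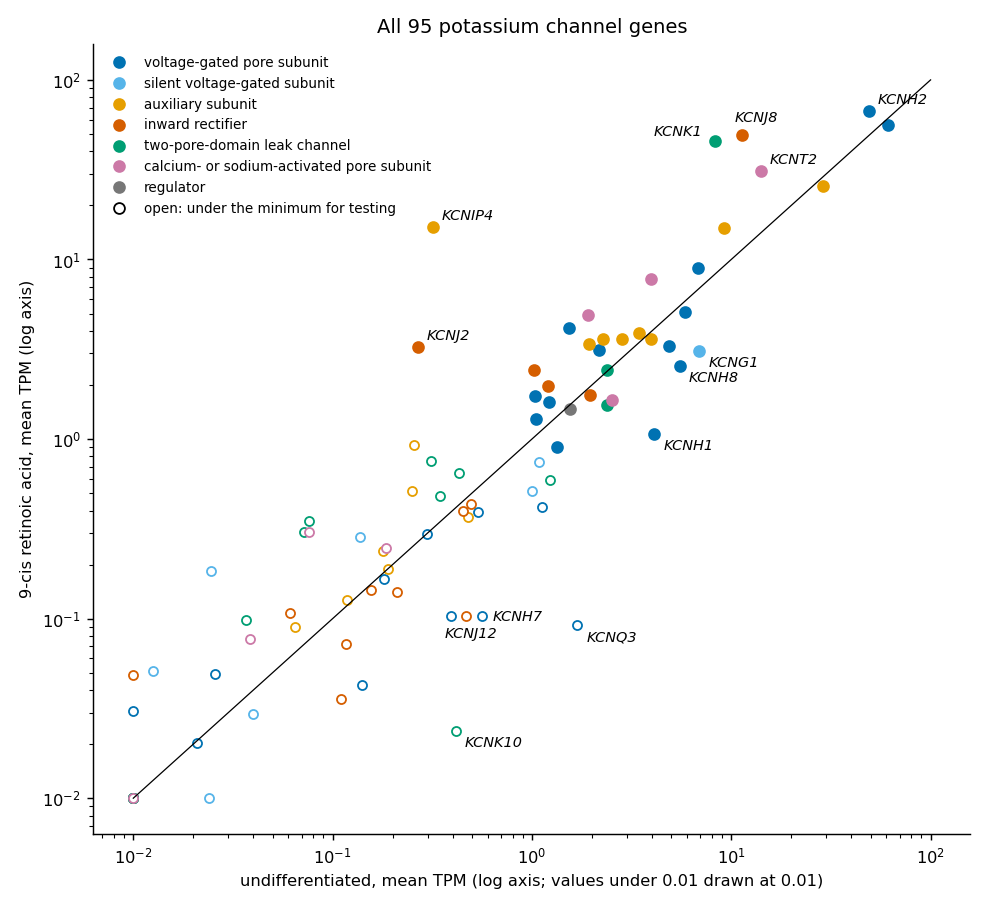
Mean TPM of each of the 95 potassium channel genes in undifferentiated (x) and differentiated (y) libraries, n = 4 each, both on log axes, with means under 0.01 drawn at 0.01. Filled points are the 35 tested genes and open points the 60 under the minimum, coloured by class, and the line marks equal levels. KCNIP4, KCNJ2, KCNK1 and KCNJ8 lie far above the line, and KCNQ3, KCNK10 and KCNH1 far below it.

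**Figure D3:**
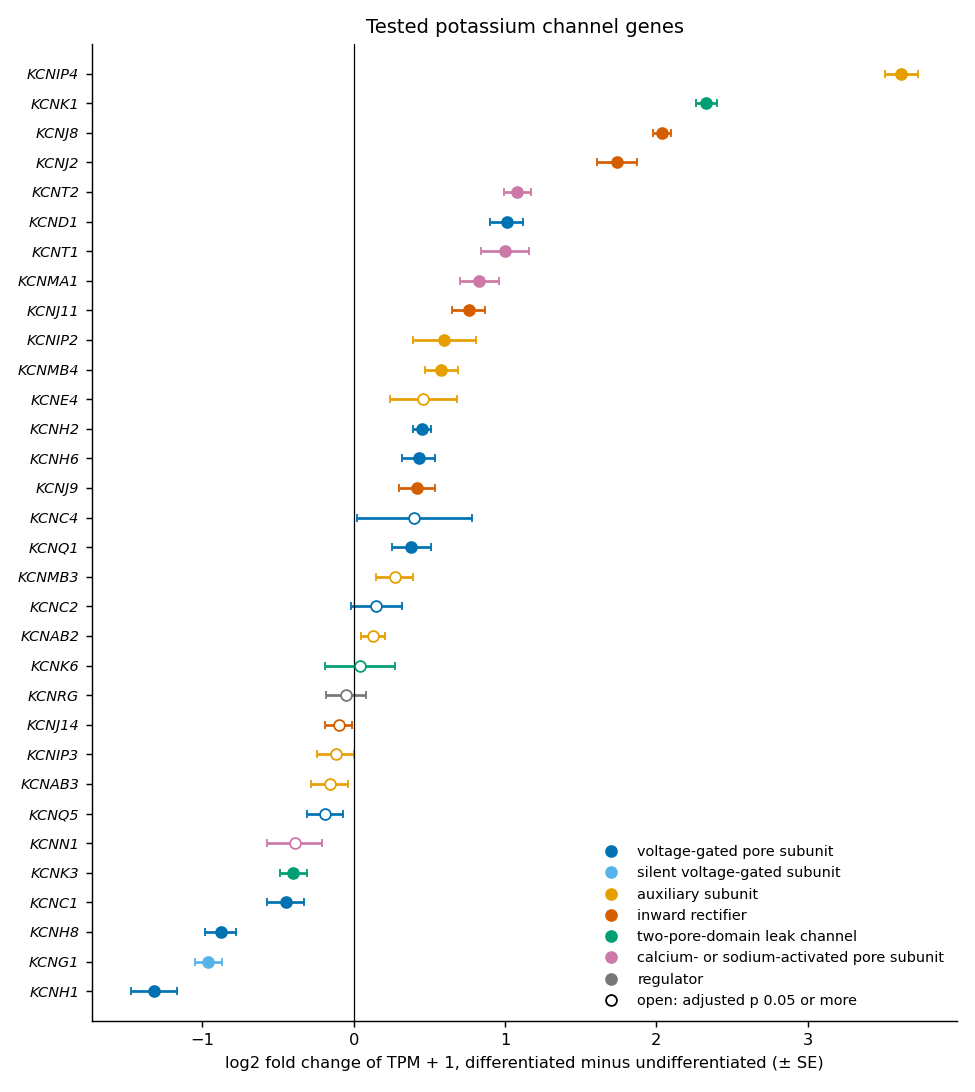
Log2 fold change of TPM + 1, differentiated minus undifferentiated, with its standard error from limma, for 32 of the 35 tested potassium channel genes, coloured by class. Filled points passed an adjusted p under 0.05, and they run from 3.62 for KCNIP4 to -1.32 for KCNH1.

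Among the inward rectifiers, 4 of 5 tested members rose, where 33.9% of all tested genes did. The minimum bears on this count, since KCNJ2 passed it through its differentiated level alone. The other 10 members of the class, KCNJ12 among them, were under it and not tested. The subunits of the ATP-sensitive potassium channel rose together. This channel closes when ATP is high and is built of pore subunits, KCNJ8 (Kir6.1) or KCNJ11 (Kir6.2), and sulfonylurea receptor subunits, ABCC8 (SUR1) or ABCC9 (SUR2). KCNJ8 (ENSG00000121361, minus strand of chromosome 12, 21764955 to 21775581 on GRCh38) measured 11.7, 11.6, 11 and 10.8 TPM in undifferentiated replicates 17 to 20 and 49.0, 54.9, 48.3 and 46.3 TPM in differentiated replicates 21 to 24. Each differentiated library was thus well above each undifferentiated one. The mean was 4.41-fold higher, 11.3 ± 0.451 against 49.6 ± 3.67 TPM, a log2 fold change of 2.04 ± 0.06 SE (limma, adjusted p = 7.51e-08). KCNJ11 rose from 1.02 ± 0.109 to 2.43 ± 0.345 TPM (log2 fold change 0.76 ± 0.11, adjusted p = 0.00054). KCNJ8 stood above KCNJ11 in both groups, and since TPM is per length, the levels of these genes can be set side by side.

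Both sulfonylurea receptor genes, from the list of channel partners, rose as well. ABCC9 lies on the same strand of chromosome 12 as KCNJ8, and ABCC8 on the same strand of chromosome 11 as KCNJ11. ABCC9 went from 1.34 ± 0.087 to 14.1 ± 2.7 TPM (log2 fold change 2.67 ± 0.13, limma adjusted p = 9.8e-07), with libraries at 1.26 to 1.45 and 11 to 16.7 TPM. ABCC8 went from 1.93 ± 0.256 to 4.33 ± 0.261 TPM (0.87 ± 0.09, adjusted p = 9e-05). ABCC8 was the higher of the pair in each undifferentiated library, and ABCC9 in each differentiated library.

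The strong inward rectifier KCNJ2 (Kir2.1), which holds the resting potential near that of potassium in muscle and some neurons, was near 0 in undifferentiated cells. KCNJ2 (ENSG00000123700, plus strand of chromosome 17, 70168673 to 70180048) measured 0.258, 0.335, 0.215 and 0.261 TPM in the undifferentiated and 3.46, 2.37, 3.45 and 3.77 TPM in the differentiated replicates. The lowest differentiated value, in replicate 22, was still far above the highest undifferentiated one. Its mean was 12.2-fold higher, 0.267 ± 0.0499 against 3.26 ± 0.611 TPM (log2 fold change 1.74 ± 0.13, limma adjusted p = 1.23e-05). KCNJ2-AS1, an antisense gene that overlaps it, was at 0.217 and 1.37 TPM, and whether the authors' quantification used strand is not given in the sources used here. KCNJ9 (Kir3.3), a G-protein-gated subunit, rose from 1.21 ± 0.107 to 1.98 ± 0.376 TPM (0.42 ± 0.12, adjusted p = 0.0187), but did not pass with quantile normalization, with lane as a term, with lane 8 alone or without undifferentiated replicate 19 (highest adjusted p over the alternatives 0.0848). KCNJ14 was at 1.96 ± 0.106 and 1.77 ± 0.12 TPM and did not pass.

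Of the tandem-pore leak channels, 1 of 3 tested members rose and 1 fell, where 33.9% and 17.4% of all tested genes did. KCNK1 (TWIK1), a weak leak channel also found in recycling endosomes, had the largest rise of a pore subunit on the log2(TPM+1) scale, while KCNJ2 had the larger ratio of means. KCNK1 (ENSG00000135750, plus strand of chromosome 1, 233614004 to 233672512) measured 8.25, 8.48, 8.62 and 7.66 TPM in undifferentiated and 41.4, 49.3, 48.0 and 43.8 TPM in differentiated replicates. The groups were far apart and each was narrow. The mean was 5.53-fold higher, 8.25 ± 0.424 against 45.6 ± 3.66 TPM (log2 fold change 2.33 ± 0.07, limma adjusted p = 6.62e-08). One transcript, KCNK1-202, which encodes 336 residues, held 81.4% ± 6.24 and 92.1% ± 2.71 of the TPM of the gene. KCNK3 (TASK1), a leak channel closed by external acid, fell from 2.37 ± 0.0889 to 1.55 ± 0.161 TPM (-0.40 ± 0.09, adjusted p = 0.00572, and 0.0502 in lane 8 alone). KCNK6 was at 2.38 ± 0.844 and 2.42 ± 0.758 TPM, of which 75.7% and 72.8% came from a transcript with no open reading frame in the annotation.

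The start regions of the 4 members with the largest rises are printed because these genes rose furthest and the treatment acts through receptors that bind DNA. Retinoic acid and retinoid X receptors bind pairs of a 6-base core motif, AGGTCA or a close form of it. The bases are the RefSeq promoter windows on GRCh38.p14 (250 bases before to 50 after each annotated start), written 5′ to 3′ on the strand of the gene and ending before the first base that GENCODE 29 annotates as transcribed from that start. KCNIP4, the A-type channel partner described further on, is at chr4:21697775-21697990 (minus strand), KCNK1 at chr1:233613856-233614003 (plus strand), KCNJ8 at chr12:21774822-21774956 (minus strand) and KCNJ2 at chr17:70169282-70169531 (plus strand). Capitals mark the letters AGGTCA on either strand.
KCNIP4: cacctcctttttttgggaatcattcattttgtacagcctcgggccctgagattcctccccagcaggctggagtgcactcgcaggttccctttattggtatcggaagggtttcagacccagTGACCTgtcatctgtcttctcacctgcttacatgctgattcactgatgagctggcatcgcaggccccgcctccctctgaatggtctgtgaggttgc
KCNK1: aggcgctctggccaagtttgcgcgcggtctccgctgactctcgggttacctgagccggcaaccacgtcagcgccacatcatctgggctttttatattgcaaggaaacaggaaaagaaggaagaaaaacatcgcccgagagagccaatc
KCNJ8: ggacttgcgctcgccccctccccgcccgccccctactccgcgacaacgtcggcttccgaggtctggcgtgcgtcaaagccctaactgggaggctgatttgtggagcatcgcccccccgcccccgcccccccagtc
KCNJ2: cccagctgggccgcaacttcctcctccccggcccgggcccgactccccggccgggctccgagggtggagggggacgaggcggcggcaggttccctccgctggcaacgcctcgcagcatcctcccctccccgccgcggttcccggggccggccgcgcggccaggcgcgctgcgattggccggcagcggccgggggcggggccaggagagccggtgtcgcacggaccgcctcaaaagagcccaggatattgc
Of these, the KCNIP4 piece holds the motif, written as its reverse complement on the strand of the gene, with its first base 130 bases before the RefSeq start. Of 95 members, 71 had at least 1 window, with 109 windows in all. AGGTCA was found on either strand in 8 of these 109 (7.34%) and in 13.8% of all 35116 windows. Direct repeats of the core motif or its close forms, on either strand, with 1, 2 or 5 bases between them (DR1, DR2 and DR5) were in 0 of the 109 and in 0.131%, 0.0399% and 0.0883% of all windows. These are matches of letters in short windows and say nothing about binding.

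Of the 4 tested pore subunits opened by calcium or sodium, 3 rose and none fell, where 33.9% and 17.4% of all tested genes did. KCNT2 (Slick) and KCNT1 (Slack) form sodium-activated channels, and KCNMA1 is the pore of the BK channel, opened by calcium and depolarization together. KCNT2 (ENSG00000162687, minus strand of chromosome 1, 196225779 to 196609225) measured 14.0, 15.3, 13.6 and 13.4 TPM in undifferentiated and 34.9, 27.3, 28.7 and 33.4 TPM in differentiated replicates. No library of one group came near the other. Its mean was 2.2-fold higher, 14.1 ± 0.827 against 31.1 ± 3.65 TPM (log2 fold change 1.08 ± 0.09, limma adjusted p = 1.73e-05). KCNT1 (ENSG00000107147, plus strand of chromosome 9, 135702185 to 135795508) measured 2.01, 2.05, 1.58 and 1.98 TPM and then 6.36, 3.62, 4.11 and 5.56 TPM. Its differentiated libraries were spread more widely but all lay above the undifferentiated ones. The mean was 2.58-fold higher, 1.91 ± 0.22 against 4.91 ± 1.27 TPM (1.00 ± 0.16, adjusted p = 0.000882). Most of KCNT1's TPM, 55.6% and 55%, came from transcripts not annotated as protein-coding, mainly retained introns, while its 1235-residue transcript KCNT1-202 was at 0.195 ± 0.0653 and 1.34 ± 0.273 TPM.

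KCNMA1 rose from 3.96 ± 0.842 to 7.74 ± 0.913 TPM (log2 fold change 0.83 ± 0.13, limma adjusted p = 0.00094), with libraries at 3.32 to 5.14 and 6.82 to 8.96 TPM. Its full-length transcript KCNMA1-202 (1236 residues) was at 2.42 ± 0.14 and 3.01 ± 0.343 TPM, and a short transcript, KCNMA1-220 (128 residues), was at 0.0959 ± 0.0957 and 1.97 ± 0.326 TPM. Another short transcript, KCNMA1-219 (168 residues), was at 0.0588 ± 0.118 and 0.641 ± 0.341 TPM. Most of the difference in the gene's sum thus lay in transcripts for short proteins. KCNMB4, the BK beta subunit of neurons, rose from 1.94 ± 0.335 to 3.37 ± 0.235 TPM (0.58 ± 0.11, adjusted p = 0.00198). KCNMB3, another beta subunit, was at 2.83 ± 0.472 and 3.6 ± 0.388 TPM and did not pass (adjusted p = 0.0891), although its groups did not overlap. KCNN1, a small-conductance calcium-activated channel, was at 2.53 ± 0.739 and 1.66 ± 0.401 TPM and did not pass (adjusted p = 0.1).

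**Figure D4:**
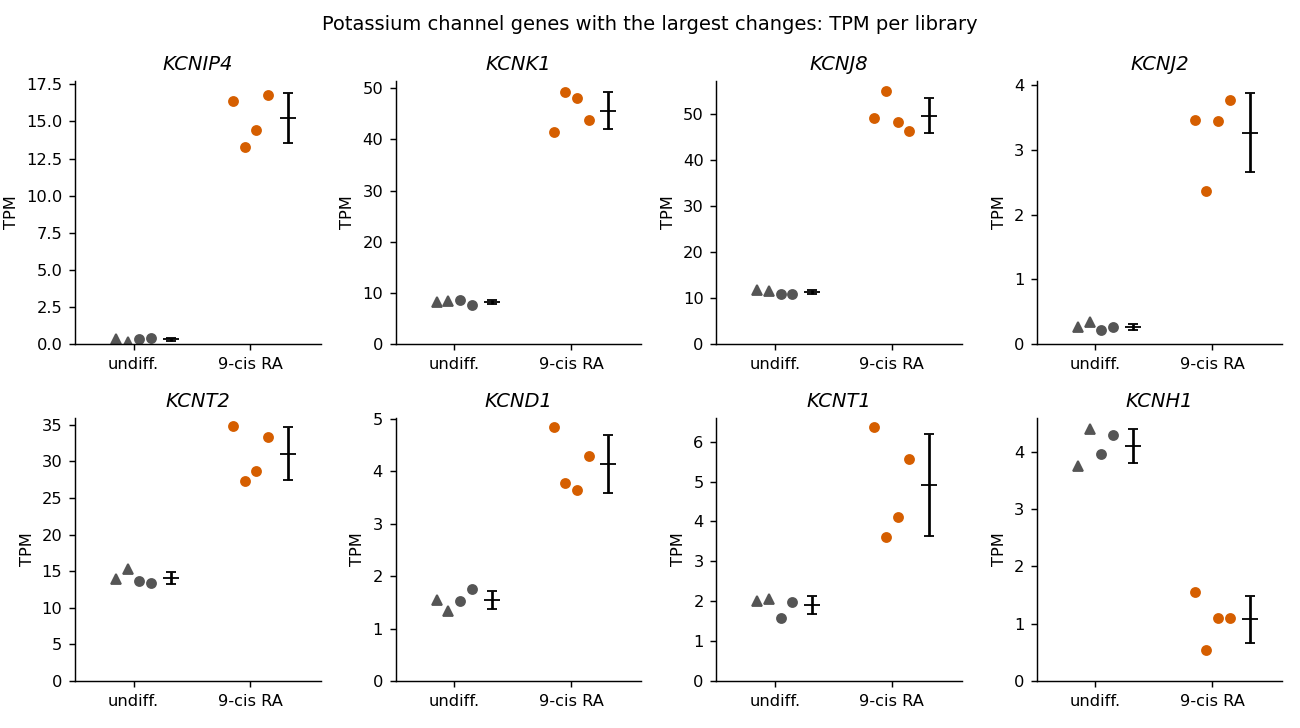
TPM in each library of the 8 potassium channel genes that passed the test, had groups that did not overlap and changed by 1 or more on the log2 scale. Points are libraries (triangles lane 7, circles lane 8), bars the mean ± SD of each group (n = 4), and every axis starts at 0. For 7 genes all differentiated libraries lie above the undifferentiated ones, and for KCNH1 they lie below.

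Of the genes of the A-type current, KCND1 and KCNIP4 rose, and KCNIP4 had the largest change of any tested member. A-type channels inactivate quickly and delay firing. They are built of KCND (Kv4) pores with KCNIP calcium sensors and with DPP6 or DPP10. KCNIP4 (ENSG00000185774, minus strand of chromosome 4, 20728616 to 21948799) measured 0.32, 0.162, 0.36 and 0.432 TPM in undifferentiated and 16.4, 13.3, 14.4 and 16.8 TPM in differentiated replicates. It was near 0 in each undifferentiated library and far above that in each differentiated one. Its mean was 47.7-fold higher, 0.319 ± 0.114 against 15.2 ± 1.62 TPM (log2 fold change 3.62 ± 0.11, limma adjusted p = 6.21e-08). Most of the TPM lay in a pair of coding transcripts from separate starts, KCNIP4-202 (225 residues) at 0.156 and 8.9 TPM and KCNIP4-207 (188 residues) at 0.107 and 5.43 TPM. The window printed above is that of KCNIP4-202. PACRGL, which overlaps KCNIP4 on the other strand, was at 37.7 and 46.7 TPM.

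KCND1 (ENSG00000102057, minus strand of chromosome X, 48961378 to 48971569), the Kv4.1 pore, measured 1.54, 1.34, 1.52 and 1.76 TPM in undifferentiated and 4.85, 3.78, 3.64 and 4.3 TPM in differentiated replicates. All differentiated libraries were above the undifferentiated ones. The mean was 2.69-fold higher, 1.54 ± 0.173 against 4.15 ± 0.552 TPM (log2 fold change 1.01 ± 0.11, limma adjusted p = 7.96e-05). The other Kv4 pores, KCND2 and KCND3, were too low to be tested, and neither reached 0.5 TPM in any library. KCNIP2 rose from 9.17 ± 1.23 to 14.9 ± 4.66 TPM (0.60 ± 0.21, adjusted p = 0.0426), but its groups overlapped, with replicate 22 at 9.47 TPM against 7.35 to 10.1 in undifferentiated cells, and the call was lost in 11 of 20 alternatives, among them leaving out any 1 library other than replicate 22 (highest adjusted p 0.11). KCNIP3 was at 3.95 ± 0.0842 and 3.59 ± 0.796 TPM and did not pass, and 98.1% and 98.4% of that came from transcripts with no annotated reading frame. DPP6 fell, from 3.26 ± 0.318 to 2.12 ± 0.192 TPM (-0.45 ± 0.09, adjusted p = 0.00376), so the A-type genes did not all move one way. DPP6 is named here after its values were seen.

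The ether-à-go-go family (KCNH) held the largest fall among tested members on the log2(TPM+1) scale and 1 of the most abundant members. KCNH1 (Eag1), a channel tied to proliferation and found in many tumours, fell. KCNH1 (ENSG00000143473, minus strand of chromosome 1, 210676823 to 211134180) measured 3.76, 4.4, 3.96 and 4.3 TPM in undifferentiated and 1.56, 0.544, 1.09 and 1.1 TPM in differentiated replicates. The highest differentiated value was below the lowest undifferentiated one. The mean was 3.82-fold lower, 4.11 ± 0.298 against 1.07 ± 0.416 TPM (log2 fold change -1.32 ± 0.15, limma adjusted p = 0.000155). KCNH1-IT1, a transcript inside one of its introns on the same strand, was at 2.0 and 0.025 TPM. KCNH8 (Elk) fell from 5.53 ± 0.286 to 2.56 ± 0.451 TPM (-0.88 ± 0.10, adjusted p = 0.000151). KCNH6 (Erg2) rose from 1.03 ± 0.0919 to 1.73 ± 0.25 TPM (0.43 ± 0.11, adjusted p = 0.0111), but did not pass with quantile normalization or with lane 8 alone (highest adjusted p over the alternatives 0.0763).

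KCNH2 (hERG1), the channel of the rapid delayed rectifier current of the heart, was the most abundant potassium channel gene in differentiated cells and rose modestly. KCNH2 (ENSG00000055118, minus strand of chromosome 7, 150944961 to 150978315) measured 48.9, 47.3, 51.4 and 47.9 TPM in undifferentiated and 63.7, 74.2, 68.2 and 62.3 TPM in differentiated replicates, and the groups did not overlap. Its mean was 1.37-fold higher, 48.9 ± 1.8 against 67.1 ± 5.35 TPM (log2 fold change 0.45 ± 0.06, limma adjusted p = 0.000406). The rise lay in coding transcripts. KCNH2-202, the short hERG1b form of 819 residues, was at 24.5 ± 1.54 and 41.4 ± 4.34 TPM. KCNH2-203 (772 residues) was at 4.68 ± 0.681 and 8.38 ± 0.419 TPM, while the retained-intron transcript KCNH2-204 was at 11.5 ± 0.43 and 8.78 ± 2.92 TPM. The full-length hERG1a transcript KCNH2-201 (1159 residues), which starts 22409 bases further upstream than KCNH2-202, was listed at 0 in all undifferentiated libraries and at 0.402 ± 0.0615 TPM in differentiated libraries. In both groups nearly all coding KCNH2 transcript was therefore assigned to the short forms. The start of KCNH2-203 (150978100) lies close to that of KCNH2-201 (150978315), so not all of the short forms belong to the downstream start. Transcript levels are estimates, since most reads of a gene match several of its transcripts.

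**Figure D5:**
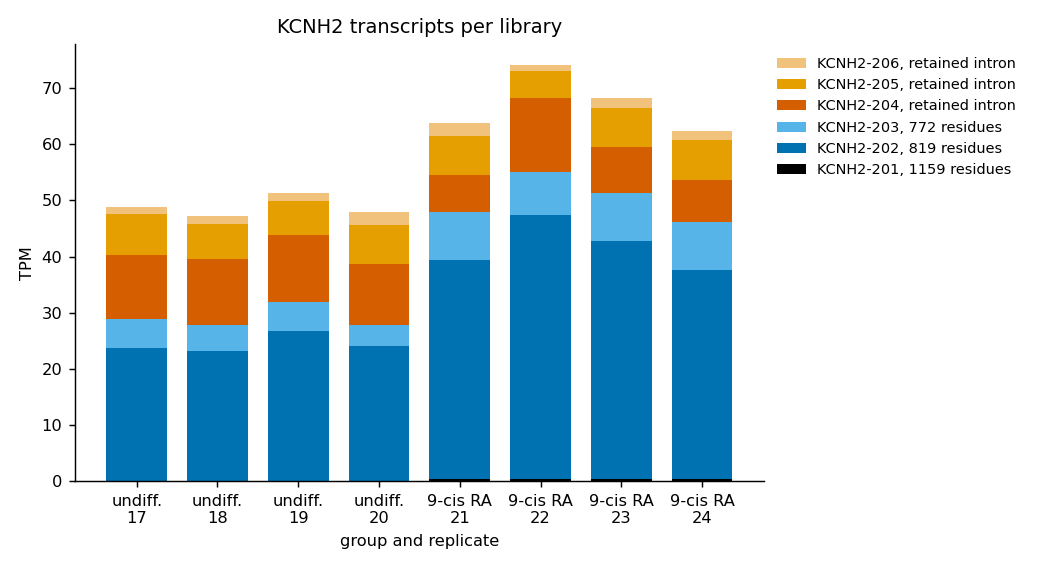
TPM of the 6 annotated KCNH2 transcripts in each library, stacked, with the residues of the coding ones. KCNH2-202 is the largest segment in every bar, at a mean of 24.5 TPM in undifferentiated and 41.4 TPM in differentiated libraries.

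As a share of the TPM of the gene, KCNH2-202 went from 50% ± 1.46 to 61.6% ± 1.62 and KCNH2-204 from 23.5% ± 0.876 to 12.9% ± 3.21. Shares within a gene sum to a fixed total, so these are not independent. Both passed the test of transcript shares (limma on the arcsine square root, adjusted p = 0.0195 and 0.0271), which called 2.4% of 22951 transcripts. They were the only calls among 20 tested transcripts of 8 potassium channel genes. With lane 8 alone the difference for KCNH2-202 was 10.5 percentage points and did not pass (adjusted p = 0.285). Its call was also lost without any 1 of undifferentiated replicates 17, 18, 19 and 20 or differentiated replicate 23 (adjusted p 0.0502 to 0.0724), with differences of 11.1 to 12.2 points. For KCNH2-204 the call was kept without replicate 22 (adjusted p = 0.00554) and lost without any other single library (0.0518 to 0.092).

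Of the KCNQ genes, KCNQ3, a subunit of the M channel, was near 0 in differentiated cells. KCNQ3 was under the minimum for testing, with a mean of 1.69 ± 0.0543 TPM and of 0.0917 ± 0.0283 TPM. KCNQ3 measured 1.69, 1.73, 1.72 and 1.61 TPM in undifferentiated and 0.11, 0.0495, 0.106 and 0.102 TPM in differentiated replicates. Every differentiated library was far below every undifferentiated one, and the mean was 18.4-fold lower. Being under the fixed minimum, it was not tested in the main fit. It would pass a lower minimum through its undifferentiated level alone, as KCNIP4 and KCNJ2 passed the minimum through their differentiated level. Those genes are in the counts of rises, while the fall of KCNQ3 is in no count of the main fit. The per-library values of KCNQ3 are given after they were seen. KCNQ5 was at 5.88 ± 0.363 and 5.07 ± 0.986 TPM and did not pass, and KCNQ1, best known from heart and inner ear, rose from 2.16 ± 0.387 to 3.12 ± 0.472 TPM (0.38 ± 0.13, adjusted p = 0.0361), with overlapping groups. The KCNQ1 call was lost in 11 of 19 alternatives, among them leaving out any 1 library other than undifferentiated replicate 19 or differentiated replicate 22 (highest adjusted p 0.224).

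Of the silent subunits 1 was tested, and it fell. Of the 4 tested KCNC genes 1 fell and none rose, where 17.4% and 33.9% of all tested genes did. KCNG1 (Kv6.1), a silent subunit, fell from 6.91 ± 0.246 to 3.09 ± 0.412 TPM (log2 fold change -0.96 ± 0.09, limma adjusted p = 3.84e-05), with libraries at 6.55 to 7.08 and 2.67 to 3.49 TPM. Its largest part, 47.7% and 39.3%, was KCNG1-205, a transcript for 48 residues, at 3.3 ± 0.672 and 1.22 ± 0.336 TPM. The 513-residue transcript KCNG1-201 was at 1.83 ± 0.161 and 1.09 ± 0.212 TPM. KCNC1 (Kv3.1), which allows fast repetitive firing, fell from 4.85 ± 0.176 to 3.31 ± 0.652 TPM (-0.45 ± 0.12, adjusted p = 0.0127), but did not pass with lane as a term or lane 8 alone (highest adjusted p 0.0868). In the same family KCNC4 was at 6.79 ± 2.97 and 9.01 ± 3.34 TPM and KCNC2 at 1.05 ± 0.219 and 1.3 ± 0.425 TPM, and neither passed. Transcripts without a coding annotation held 92.2% and 91.8% of KCNC4 and 98.7% and 99.5% of KCNC2, so these sums say little of the coding mRNA. The KCNA family (Kv1), of 8 genes, had no tested member and summed to 0.752 ± 0.0886 and 0.614 ± 0.238 TPM.

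The beta subunits of Kv1 channels were present nonetheless. KCNAB3 was at 28.7 ± 0.96 and 25.8 ± 4.63 TPM and KCNAB2 at 3.45 ± 0.309 and 3.88 ± 0.241 TPM, and neither passed. Of KCNAB3, 74.3% and 67.0% was in transcripts annotated as retained introns or as targets of nonsense-mediated decay. KCNE4, a single-span inhibitor of several channels, was at 2.28 ± 0.559 and 3.59 ± 1.27 TPM and did not pass (adjusted p = 0.12), and 100.0% and 99.4% of that was a transcript with no annotated reading frame. KCNRG, a soluble protein that hinders the assembly of Kv channels, was at 1.55 ± 0.305 and 1.47 ± 0.267 TPM and did not pass. It lies within a locus shared with TRIM13 (28.2 and 27 TPM) on the same strand. In all, 25 of the 35 tested members were overlapped by another gene, 12 of them by one of 1 TPM or more, and among the called genes this also held for KCNC1 (SERGEF, 8.92 and 17.7 TPM, other strand), KCNMA1 (KCNMA1-AS1, 1.67 and 1.57 TPM, other strand) and KCNT2 (MIR4735, 0.81 and 1.03 TPM, same strand).

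Of the 60 untested members, 18 reached 0.5 TPM in at least 1 library, 42 did not, and 10 of those were listed at 0 in all 8. Besides KCNQ3, KCNK5 had means of 1.23 and 0.595 TPM, KCNH4 of 1.12 and 0.417, KCNV1 of 1.09 and 0.747 and KCNG3 of 1.0 and 0.514 TPM in undifferentiated and differentiated cells. KCNAB1, the remaining Kv1 beta subunit, was at 0.257 and 0.928 TPM, KCNK4 at 0.31 and 0.752 TPM and KCNK9 at 0.429 and 0.646 TPM. At a minimum of 0.5 TPM, 8 more members entered the test, 4 called lower and 2 higher, in a fit that called 15.7% of 19666 genes lower and 31.3% higher. Several of the 8 passed that minimum through 1 group only, so nothing is read from this count. With no filter beyond a value above 0, 85 members were tested, and 13 were lower and 21 higher, where 9.49% and 19.4% of all genes were. Lower still were KCNH3 (0.394 and 0.104 TPM), KCNK7 (0.344 and 0.48), KCNK10 (0.416 and 0.0237), KCNH7 (0.563 and 0.104), KCNJ15 (0.449 and 0.396), KCNA3 (0.537 and 0.394), KCNJ3 (0.493 and 0.435), KCNIP1 (0.251 and 0.516), KCNMB1 (0.476 and 0.369) and KCNJ12 (0.467 and 0.103). KCNJ12 has a near-identical copy, KCNJ18, which had no row, so its level is uncertain.

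Other genes that act with potassium channels were counted from lists. For each of these small counts, the share over all tested genes was 33.9% higher and 17.4% lower. Of 11 channel partners, 6 were tested, 3 rose (ABCC9, ABCC8 and AMIGO1) and 3 fell, with LINGO1, a regulator of BK channels, going from 3.4 ± 0.229 to 1.42 ± 0.273 TPM (log2 fold change -0.87 ± 0.11, limma adjusted p = 0.000231). AMIGO1 rose only from 1.51 ± 0.115 to 2.03 ± 0.19 TPM (0.27 ± 0.09, adjusted p = 0.043). Leaving out any 1 library other than differentiated replicate 22 left 2 partners called higher. Both tested HCN genes, of the cation channels opened by hyperpolarization, rose, HCN2 from 2.42 ± 0.121 to 4.13 ± 0.314 TPM and HCN3 from 13.8 ± 1.03 to 15.9 ± 0.462 TPM (adjusted p = 0.000425 and 0.0311). Only 1 HCN gene was called without undifferentiated replicate 17, 18 or 20 or differentiated replicate 21 or 23. Of 14 genes of the sodium-potassium pump, which builds the potassium gradient, 6 were tested, 3 rose and 1 fell. Among those that rose was ATP1B1, a beta subunit, from 56.2 ± 3.54 to 88.3 ± 6.5 TPM (adjusted p = 7.07e-05). Of 4 tested cation-chloride cotransporters 1 passed, the potassium-chloride cotransporter SLC12A4, which rose from 8.72 ± 1.73 to 29.6 ± 4.48 TPM (adjusted p = 2.99e-05).

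For comparison, 7 of 10 tested sodium channel genes rose, where 33.9% of all tested genes did, among them SCN11A (log2 fold change 1.66 ± 0.13) and SCN9A (1.14 ± 0.09). The minimum bears on this count and on the median of these genes. SCN11A (0.205 and 2.85 TPM), SCN4B (0.974 and 3.01 TPM) and SCN7A (0.881 and 1.83 TPM) were all called higher. They passed the minimum through their differentiated level alone. SCN1A, at 1.48 ± 0.202 and 0.0881 ± 0.0497 TPM, dropped under it and was not tested. It is therefore in neither the count nor the median. Of 10 tested calcium channel genes 2 rose and 5 fell, where 17.4% of all tested genes fell, led by CACNB2 (0.96 ± 0.08), CACNB3 (0.92 ± 0.08) and CACNA1B (-0.90 ± 0.24). The calcium channel genes called lower numbered 3 to 5 when 1 library was left out, and 3 without undifferentiated replicate 17 or 20 or differentiated replicate 22 or 23. The median log2 fold change was 0.65 for the sodium channels, -0.23 for the calcium channels and 0.27 for the potassium channels. The difference between these families was not tested.

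Markers of the labelled cell type were present, since all 12 noradrenergic neuroblast genes were tested, and most of them differed between the groups. They summed to 2340 to 2430 TPM in undifferentiated and 1570 to 1830 TPM in differentiated libraries, with 2 higher and 9 lower. Over all tested genes 33.9% were higher and 17.4% lower. Markers of fibroblast and mesenchymal cells summed to 262 to 287 and 672 to 821 TPM (3 of 7 tested higher, 0 lower), most of the difference being COL3A1 at 43.6 and 472 TPM, with PRRX1 and POSTN under 0.1 TPM in every library. Schwann and glial markers summed to 7.59 to 10.4 and 17.8 to 20.0 TPM (1 of 4 tested higher), with SOX10 and FOXD3 under 0.1 TPM. Epithelial markers summed to 2.09 to 3.32 and 13.5 to 18.0 TPM (2 of 3 tested higher), most of the difference being KRT18 at 0.262 and 12.1 TPM, with KRT5 under 0.1 TPM. Of the 6 blood markers 1 was tested, CD68, at 0.338 and 20.9 TPM, and CD3E, HBA1 and HBB were under 0.1 TPM. Endothelial and muscle markers summed to under 0.5 TPM in every library, but only 3 of the 4 endothelial markers had values, PECAM1 having none. The part of these shifts in the potassium channel results was not tested.

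The direction of the split depended on scaling, since TPM compares shares of a library. Median-of-ratios scaling moved the median of all genes from 0.10 to -0.02 and quantile normalization to -0.07. The share of all tested genes called higher and lower was then 27.1% and 26.1%, and 24.4% and 29.9%. Of the potassium channel genes 14 were then higher and 7 lower, and 11 higher and 12 lower. Each of the 20 genes called with TPM as deposited kept its direction under both. With lane 8 alone 11 members were higher and 3 lower, where 26.0% and 11% of all genes were. At a minimum of 5 TPM, 11 members were tested, 7 were higher and 0 lower, where 37.1% and 20.6% of all genes were. Without differentiated replicate 22, 17 of 36 tested members were higher and 7 lower, where 38.6% and 18.1% of all genes were. KCNE4 was then higher and KCNN1 and KCNQ3 lower, KCNQ3 having passed the minimum through its undifferentiated level.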

How the data were processed

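Sequencing covered 8 SH-SY5Y libraries, 4 per group, prepared with a stranded mRNA kit per the labels' protocols. The authors deposited TPM per Ensembl transcript, made with FastQC 0.11.2 and Salmon on genome build GRCh37, per the submitters' processing notes. Which Salmon version, settings and annotation release were used, and whether strand was, is not given in the sources used here. Salmon divides reads among similar sequences, so transcripts of one gene, close paralogs and overlapping genes have uncertain values.

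Of 194993 transcripts, 180930 (92.79%) matched GENCODE 29 (GRCh38) by unversioned identifier, holding 93.18% to 94.98% of the TPM of a library. That annotation gave names, positions and residues and may not be the authors' one. Of 96 KCN genes 95 had rows (442 transcripts), KCNJ18 having none, and KCNJ5-AS1 was left out as an antisense RNA. TPM were summed per gene. Genes averaging at least 1 TPM entered limma 3.58.1 (R 4.3.3, trend) on log2(TPM+1), which understates changes of low genes. The test was two-sided, and a call needed an adjusted p under 0.05 (Benjamini-Hochberg over all genes). Transcript shares were tested with limma on the arcsine square root (genes of 5 TPM or more in each group, shares of 10% to 90%), and a call also needed 10 percentage points. Python 3.11.15 and pandas 2.3.3 handled the tables. Promoter windows are RefSeq's on GRCh38.p14.

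Every tested member is named, except that some genes are not reported here. Members that passed, had groups that did not overlap and changed by 1 or more on the log2 scale are given per library, members under the minimum are named from 0.5 TPM in their highest library, and up to 3 called genes per list are named. SCN1A, SCN4B and SCN7A are named besides these, after their values were seen. The members and lists were chosen with earlier results of these data known. Alternatives were other pseudocounts (0.5, 0.1), minimums (none, 0.5, 5 TPM), scalings, variance priors, coding transcripts only, lane 8 alone, lane as a term, a permutation test and leaving out each library. On simulated data (16773 genes, 40 changed at each size), limma recovered 87.5% of genes raised and 90.0% of genes lowered by 1 on the log2 scale. It recovered 57.5% and 47.5% at 0.5, and 95.0% raised by 2, with 10 false calls. The changed genes were drawn only from those above about 5 TPM, a mean that 11 of the 35 tested members reached. The rates therefore do not describe the lower members. Far fewer genes changed there than the 51.3% called in the data.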

Additional observations from a re-analysis of the deposited data

Results flagged for a closer look

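In groups of 4 libraries, the highest or lowest value of 2 genes stood apart by more than Dixon's 95% critical value for 4 samples. KCNAB2, a Kv1 beta subunit, was at 2.99 TPM in undifferentiated replicate 19, against 3.57 to 3.65 TPM in the other undifferentiated libraries (ratio of gap to range 0.879). KCNT1, a sodium-activated channel, was at 1.58 TPM in the same replicate, against 1.98 to 2.05 TPM (ratio 0.852). With 70 groups examined, such a rule marks about 1 in 20 by chance. KCNT1 passed the test without that replicate as well, and KCNAB2 did not pass with or without it.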

How the results depend on the processing

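Of the 20 potassium channel genes called, 14 kept their call and direction in each of the 20 alternatives that tested them, other than the permutation test, and 6 lost it in at least 1 (KCNC1, KCNH6, KCNIP2, KCNJ9, KCNK3 and KCNQ1). No called member reversed, and 10 uncalled members gained a call in at least 1. An exact two-sided permutation test of 4 against 4 libraries cannot go below p = 0.0286, which gave a smallest adjusted p of 0.0576, so it called 0 genes of all tested, 0 higher and 0 lower, and 0 and 0 potassium channel genes, with 19 of 35 members at an unadjusted p under 0.05. Of the potassium channel genes, 13 of 85 tested were lower with no filter and 9 of 43 with a minimum of 0.5 TPM. With quantile normalization 12 of 35 were lower and with lane 8 alone 3 of 35, against 5 of 35 as reported. At a minimum of 5 TPM 11 members were tested, against 35, and 7 were higher and 0 lower, where 37.1% and 20.6% of 11983 genes were. Over all genes, 5098 were lower with quantile normalization and 1886 with lane 8 alone, where fewer libraries enter, against 2970. Leaving out 1 library gave 7784 to 9724 calls over all genes, and 13 to 17 members higher and 5 to 7 lower. Transcript shares changed in 35 transcripts with lane 8 alone and 158 to 680 when 1 library was left out, against 550, and in potassium channel genes in 0 and 0 to 2, against 2, and 4 at a gene minimum of 2 TPM. The cause was not tested. Directions of uncalled members turned as follows. With quantile normalization KCNAB2 was at -0.12, KCNC2 at -0.05 and KCNK6 at -0.16 (log2 fold change). KCNK6 was also at -0.05 with median-of-ratios scaling, -0.17 without undifferentiated replicate 19 and -0.10 without differentiated replicate 24 (-0.17 to 0.13 when 1 library was left out). With coding transcripts only KCNAB3 was at 0.18 and KCNN1 at 0.00. KCNRG was at 0.01 without undifferentiated replicate 19 and 0.01 without differentiated replicate 24 (-0.11 to 0.01 when 1 library was left out). No paired analysis was possible because the replicate numbers 17 to 20 and 21 to 24 are not shared between the groups. Depth is unknown, so the error of values near 0 cannot be stated.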
